A study of Mus musculus with 43 samples.

Results

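The effect of the NRF2 inducer CDDO-2P-Im on the brain transcriptome of AppNLGF mice was measured in 24 of the 43 RNA sequencing libraries of the study, those labelled AppNLGF with CDDO-2P-Im (13 libraries) or with vehicle (11 libraries). AppNLGF mice are homozygous for the App NL-G-F knock-in, in which the mouse's own App gene, under its own promoter, carries a humanised amyloid beta sequence and familial Alzheimer's disease mutations. All were 6 months old. CDDO-2P-Im is a synthetic oleanane triterpenoid, dosed orally at 30 µmol/kg, with 3 doses a week over 4 weeks, and the vehicle was 10% DMSO, 10% Cremophor EL in PBS. The same deposited table holds 4 vehicle-treated wild type libraries of that age, for which the labels give no dosing schedule. A separate cohort of APP/TAU mice, which carry human APP V717I and TAU P301L transgenes, was 11 months old and treated for 2 weeks at the same dose and frequency, with 5 libraries each of wild type with vehicle, APP/TAU with vehicle and APP/TAU with CDDO-2P-Im. The tissue is labelled brain with no region named, and the sex of the mice is not given in the labels.

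NRF2 is a transcription factor that KEAP1 marks for destruction until electrophiles, CDDO compounds among them, modify KEAP1. Stabilised NRF2 binds antioxidant response elements and raises genes for glutathione transfer, quinone and aldehyde detoxification, NADPH supply and iron storage. Immediate early genes such as Fos, Junb, Nr4a1 and Arc form a separate class that neurons switch on within minutes of synaptic activity, through promoter elements that include cAMP response elements.

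Expression was deposited as TPM, an abundance that is corrected for transcript length and scaled to a fixed total per library, and the read depth behind it is unknown. A single RNA without a symbol, ENSMUSG00000118866, held 29.1 to 38.0% of the TPM of vehicle libraries and 28.3 to 40.0% of treated ones. Levels are therefore given here as scaled TPM, the TPM divided by a median-ratio size factor per library. Fold changes are differences of mean log2(scaled TPM + 1), treated minus vehicle, with the standard error (SE) and the adjusted p of limma. The added 1 understates the change of low genes. A gene was called, and is said to have risen or fallen, at an adjusted p below 0.05. The median fold of all genes was -0.0020 on the scaled values and -0.038 on the deposited ones. Xist was above 10 TPM in 5 of 11 vehicle, 7 of 13 treated and 0 of 4 wild type libraries. Nothing in the labels ties each library to its own animal. The p-values therefore reflect the spread between libraries, which may be technical.

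Treatment was accompanied by higher RNA of activity-regulated genes (Arc, Nr4a1, Junb, Fos) and of a small set of NRF2-linked genes (Gstm1, Ftl1, Aox1, Nqo1, Slc40a1). Of 16776 gene rows tested, 41 rose (0.244%) and 7 fell (0.0417%), together 0.286%, and 2094 (12.5%) had an unadjusted p below 0.05. Of these 2094, 1097 were higher and 997 lower with treatment. Over all 16776 genes 8213 folds were above 0. With the deposited TPM, 8 rose (0.0477%) and 1 fell (0.00596%), together 0.0536%, and 1036 (6.18%) had an unadjusted p below 0.05. The 9 genes called were Arc, Junb, Depp1, Nr4a1, Rida, Fos, Aox1 and Rsrp1, which rose on both scales, and Nxn, which fell on the deposited scale only. All 13 treated libraries lay above every vehicle library for 3 genes (0.0179% of those tested), Gstm1, Ftl1 and Rida, on the scaled values, and for 1 (0.00596%) on the deposited ones. At least 10 of the 13 lay above every vehicle library for 43 genes (0.256%) and below for 12 (0.0715%); on the deposited scale these were 13 (0.0775%) and 2 (0.0119%). Leaving out treated libraries 1 and 2, which held the lowest Cst7 and Gfap levels of their group, gave 29 called genes, 26 of them among the 48. Treated libraries 1, 5 and 2 held the highest shares of ENSMUSG00000118866 (40.0, 39.7 and 39.3% of the TPM), and leaving out these 3, chosen after seeing the data, gave 41, 31 of them among the 48. Without treated library 4 the count was 83 and without treated library 6 it was 89. The deposited count of 9 became 5 without vehicle library 3 or treated library 11, 14 without treated library 6 and 15 without treated library 5.

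Arc and 3 immediate early transcription factors showed the largest rises among the genes with an official symbol that were called. Arc, the synaptic scaffold whose RNA is carried to active dendrites (chr15:74669083-74672570, GRCm38), had 21.9, 31.4 and 71.0 scaled TPM as the lowest, median and highest of the 11 vehicle libraries. The 13 treated libraries had 47.0, 81.8 and 116. The groups overlapped through vehicle library 6, the highest of its group, and treated library 6, the lowest of its own, and 10 of 13 treated libraries lay above every vehicle library. The fold was 1.24 ± 0.16 (SE, n = 13 and 11; adjusted p = 0.000104). The 4 wild type libraries held 73.5, 87.6, 109 and 55.5 scaled TPM, so the treated range covered them and the vehicle range reached only the lowest of them. Nr4a1, an orphan nuclear receptor (chr15:101254269-101274795), ran from 16.6 through a median of 19.6 to 29.4 in vehicle libraries and from 26.5 through 44.7 to 69.9 in treated ones. Its fold was 1.03 ± 0.13 (adjusted p = 0.000104), with 11 of 13 treated libraries above every vehicle library.

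Junb, a subunit of the AP-1 transcription factor (chr8:84974484-84978718), ran from 14.3 through 17.9 to 24.9 scaled TPM with vehicle and from 23.1 through 39.5 to 59.5 with treatment. The groups met only in treated library 6, and 12 of 13 treated libraries lay above every vehicle library (fold 1.02 ± 0.14, adjusted p = 0.000183). Fos, the partner of JUN proteins in AP-1 (chr12:85473890-85477273), ran from 3.03 through 6.01 to 8.23 with vehicle and from 6.27 through 13.3 to 26.3 with treatment. Here too 12 of 13 treated libraries were above every vehicle library (1.13 ± 0.18, adjusted p = 0.00184). Wild type libraries held 22.4, 29.1, 19.8 and 13.3 for Fos, all above every vehicle library. On the deposited scale Fos passed with an adjusted p of 0.0232, and lost its call without vehicle library 2, 3, 4 or 11 or treated library 3 or 11 (adjusted p 0.0511 to 0.0586).

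The 250 bases before the RefSeq start of Nr4a1, Fos, Junb and the phosphatase gene Dusp1 are shown because they share a cAMP response element half-site, TGACG, the core to which CREB-family factors bind. They are RefSeq sequences of GRCm38.p6, written 5′ to 3′ on the strand of the gene, and capitals mark TGACG or its reverse complement. The gene positions given with the levels are those of GENCODE, whose genes span all their transcripts, and the RefSeq starts of Nr4a1 and Dusp1 lie 12577 and 53656 bases inside them.
Nr4a1, chr15:101266596-101266845 (+ strand): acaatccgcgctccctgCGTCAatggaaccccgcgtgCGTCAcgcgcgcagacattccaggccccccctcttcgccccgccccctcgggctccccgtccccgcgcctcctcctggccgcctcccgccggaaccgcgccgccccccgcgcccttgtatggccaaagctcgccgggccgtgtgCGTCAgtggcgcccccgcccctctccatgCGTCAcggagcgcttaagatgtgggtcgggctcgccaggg
Fos, chr12:85473640-85473889 (+ strand): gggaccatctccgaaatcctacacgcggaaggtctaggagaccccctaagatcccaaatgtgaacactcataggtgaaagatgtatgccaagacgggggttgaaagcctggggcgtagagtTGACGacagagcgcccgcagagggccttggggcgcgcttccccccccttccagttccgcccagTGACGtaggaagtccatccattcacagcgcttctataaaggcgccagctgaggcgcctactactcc
Junb, chr8:84978749-84978998 (- strand): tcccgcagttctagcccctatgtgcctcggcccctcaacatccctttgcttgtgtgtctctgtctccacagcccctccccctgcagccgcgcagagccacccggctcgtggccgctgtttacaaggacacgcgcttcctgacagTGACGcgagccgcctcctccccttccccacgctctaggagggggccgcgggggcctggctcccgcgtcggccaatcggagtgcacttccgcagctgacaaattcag
Dusp1, chr17:26508473-26508722 (- strand): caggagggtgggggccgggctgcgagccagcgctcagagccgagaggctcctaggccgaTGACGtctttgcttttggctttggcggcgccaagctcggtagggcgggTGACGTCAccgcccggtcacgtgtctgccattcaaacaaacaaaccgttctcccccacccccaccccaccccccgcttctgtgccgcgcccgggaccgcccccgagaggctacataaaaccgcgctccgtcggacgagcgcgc

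Counted by its first base before the start site, the half-site stood at -233, -213, -69 and -40 in Nr4a1, at -129 and -66 in Fos, at -106 in Junb and at -191, -143 and -140 in Dusp1. The matches at -143 and -140 in Dusp1 overlap and form the full palindrome TGACGTCA. Of 10388 tested genes with a promoter in the RefSeq table, 2825 (27.2%) held TGACG on either strand. Among the genes that rose, 11 of the 27 with an entry held it (40.7%), and so did 10 of 15 immediate early transcription factors (66.7%), whether they rose or not. The full palindrome stood in 2.82% of all promoters and, among the genes that rose, in Dusp1 only. The core of the antioxidant response element, TGACNNNGC, stood in 5 of 27 (18.5%) against 11.5% of all; none of the 5 is an NRF2 target in the lists used here. The E-box CACGTG stood in 5 of 27 (18.5%) against 8.35%, and the CArG box in 1 of 27 (3.70%) against 1.10%. Among the 15 immediate early factors 0 held the full palindrome TGACGTCA and 0 the CArG box. The motifs and the list were chosen with earlier results of these data known, so these shares are description and were not tested. Arc, Ier2, Rida and Slc40a1 have no entry.

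**Figure D1:**
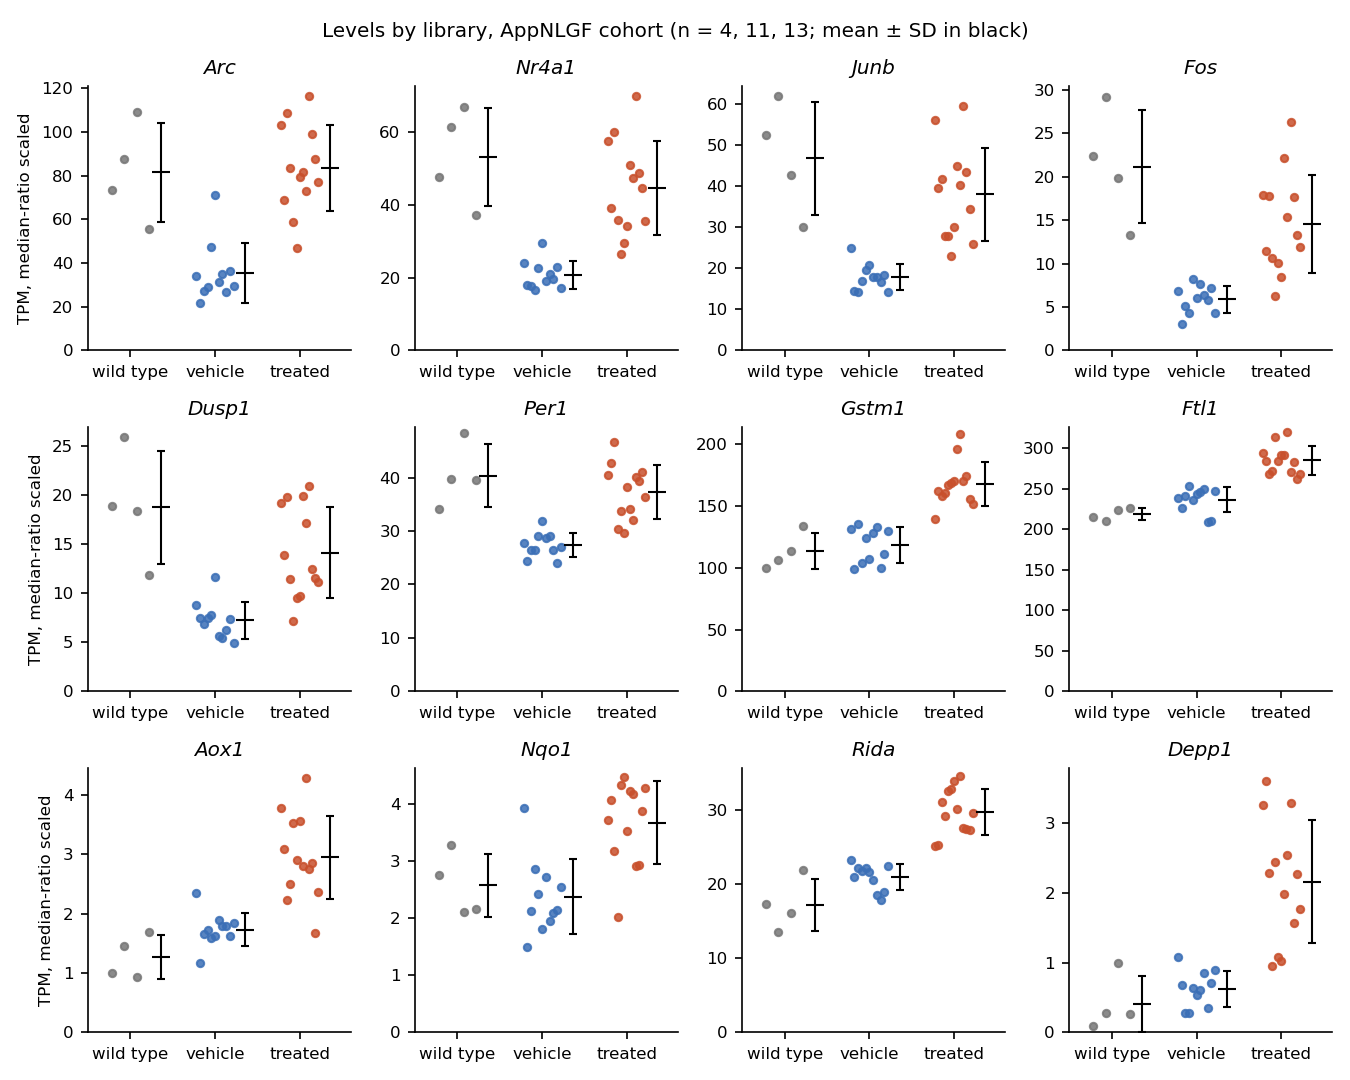
Scaled TPM (vertical axes) of 12 genes in each library of the wild type, AppNLGF vehicle and AppNLGF CDDO-2P-Im groups (horizontal axes); points are libraries and bars are mean ± SD. For Gstm1, Ftl1 and Rida all 13 treated points lie above the 11 vehicle points, while Arc overlaps through its highest vehicle library at 71.0.

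Of 18 tested immediate early transcription factors, 6 rose and 0 fell, with a median fold of 0.24 against -0.0020 over all genes (0.20 on the deposited scale). Besides Fos, Junb and Nr4a1 these were Egr2, Ier2 and Klf2. Egr2, a zinc finger factor (chr10:67535475-67542188), ran from 0.458 through 1.57 to 2.25 scaled TPM with vehicle and from 1.26 through 4.22 to 7.63 with treatment. Its treated range began inside the vehicle range, but 10 of 13 treated libraries lay above every vehicle library (0.96 ± 0.18, adjusted p = 0.0107). Ier2 (chr8:84661331-84662852) had medians of 2.36 and 4.41 (0.61 ± 0.11, adjusted p = 0.0107). Klf2, a Krüppel-like factor best known from endothelium (chr8:72319033-72321656), had medians of 3.94 and 5.87 (0.46 ± 0.10, adjusted p = 0.0269).

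Klf2 lost its call without vehicle library 2 or 3 or treated library 8 or 10 (adjusted p 0.0505 to 0.0632) and without treated libraries 1 and 2 together (0.0628), when 5 of the 18 rose with a list median of 0.31. The immediate early list was not uniform. Egr1, the most abundant zinc finger factor of this class named here, ran from 50.0 through 75.1 to 90.1 with vehicle and from 49.4 through 95.4 to 114 with treatment, and did not pass (0.25 ± 0.14, adjusted p = 0.454). Nr4a2 (-0.078, adjusted p = 0.875) and Egr3 (-0.066, adjusted p = 0.881) had folds below 0, and Npas4 (0.52, adjusted p = 0.0616) and Egr4 (0.44, adjusted p = 0.0592) missed the threshold; these 4 were chosen after their values were seen. At an unadjusted p below 0.05, 11 of the 18 were higher and 0 lower, against 1097 and 997 of all 16776 genes. This list and the others were chosen with earlier results of these data known. Their counts beside those of all genes are therefore description and no test of the list.

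Dusp1, a phosphatase that switches off MAP kinases (chr17:26505590-26562128), ran from 4.96 through 7.33 to 11.7 with vehicle and from 7.15 through 12.4 to 20.9 with treatment. It rose by 0.84 ± 0.16 (adjusted p = 0.0107), with 7 of 13 treated libraries above every vehicle library. It was the only gene to rise among 14 MAP kinase phosphatase and Sprouty genes, whose median was 0.00068 scaled and -0.035 deposited. Dusp6 (0.30, adjusted p = 0.118) and Dusp5 (0.37, adjusted p = 0.142) did not pass. Nab2 and Erf were in none of the lists and are named because they were called. Nab2, a co-repressor of EGR factors, rose from a median of 12.8 to 16.9 (0.38 ± 0.08, adjusted p = 0.0222), and Erf, an ERK-controlled repressor, from 14.1 to 17.9 (0.27 ± 0.06, adjusted p = 0.0434). Without treated libraries 1 and 2 the adjusted p was 0.0639 for Nab2 and 0.103 for Erf, and Erf also lost its call without any of 20 single libraries. Among 27 activity-regulated effector genes Arc was the only one to rise (median 0.077), with 10 higher, Arc included, and 2 lower at an unadjusted p below 0.05. The growth-arrest gene Btg2 (0.74 ± 0.18, adjusted p = 0.0665) and Gadd45b (0.39 ± 0.09, adjusted p = 0.0592) fell short of the threshold.

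**Figure D2:**
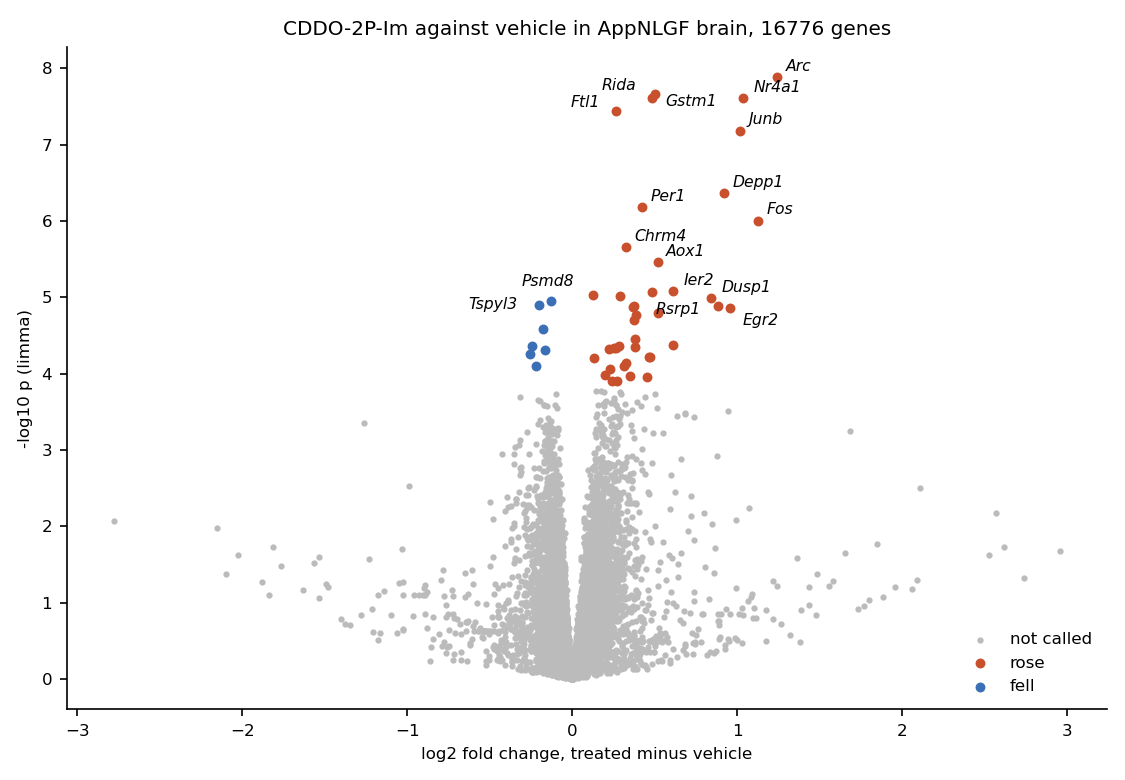
Fold change (horizontal axis, log2 of scaled TPM + 1, treated minus vehicle) against the unadjusted p (vertical axis, -log10) of the 16776 genes tested; coloured points are the 41 genes that rose and the 7 that fell. Arc, Nr4a1, Fos and Junb stand at folds above 1, while Gstm1, Rida and Ftl1 reach comparable p-values at folds of 0.27 to 0.50.

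Among NRF2 targets, 5 of 54 tested genes rose and 0 fell, with a median of 0.067 scaled and 0.030 deposited. Folds were above 0 for 43 of the 54, against 8213 of 16776 over all genes. On the deposited scale Aox1 was the only NRF2 target to rise. At an unadjusted p below 0.05, 15 of the 54 were higher and 1 lower, against 1097 and 997 of all 16776 genes. These lists too were chosen with earlier results of these data known, so the counts are description only. The glutathione transferase Gstm1, which couples glutathione to electrophiles (chr3:108012255-108017973), ran from 98.9 through 124 to 136 scaled TPM with vehicle and from 140 through 167 to 208 with treatment. The groups did not overlap, and the fold was 0.50 ± 0.06 (adjusted p = 0.000104; deposited 0.46, adjusted p = 0.0604). Wild type libraries held 100, 106, 113 and 134, within the vehicle range. It was the only one of 14 glutathione transferase genes to rise (median 0.057), and Gstm4, its neighbour in the same cluster, had a fold of 0.24 (adjusted p = 0.292). Reads that fit several Gstm genes may be divided between them.

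The ferritin light chain Ftl1, which stores iron (chr7:45457944-45459884), ran from 208 through 241 to 253 scaled TPM with vehicle and from 262 through 284 to 320 with treatment. The ranges did not meet (0.27 ± 0.04, adjusted p = 0.000121; deposited 0.22, adjusted p = 0.313), although the step was small beside that of Arc. Ftl1 has near-identical copies in the genome, so its level is uncertain. Slc40a1, the iron exporter ferroportin (chr1:45908068-45926523), ran from 1.90 through 2.18 to 2.54 and from 2.13 through 3.05 to 3.95 (0.32 ± 0.07, adjusted p = 0.0322). With 11 of 13 treated libraries above every vehicle library it still lost its call without any of 10 single libraries (vehicle 2, 5, 7, 8 or 9, treated 3, 8, 9, 10 or 13; adjusted p 0.0505 to 0.0658). Ftl1 and Slc40a1 were the 2 of 9 haem and iron genes that rose (median 0.11). Hmox1, the haem oxygenase often used as a marker of NRF2 induction, ran from 2.45 through 3.13 to 3.58 with vehicle and from 1.94 through 3.41 to 4.51 with treatment. Its 13 treated values lay on both sides of the vehicle range, 4 above it and 4 below (0.02 ± 0.08, adjusted p = 0.944; deposited -0.01).

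Aox1, an aldehyde oxidase (chr1:58029931-58106413), ran from 1.16 through 1.72 to 2.35 scaled TPM with vehicle and from 1.68 through 2.85 to 4.28 with treatment. It rose by 0.52 ± 0.09 (adjusted p = 0.00523), with 11 of 13 treated libraries above every vehicle library. Its call on the deposited scale (adjusted p = 0.0232) was lost without vehicle library 2, 3, 4 or 5 or treated library 11 (0.0511 to 0.0586). Nqo1, the quinone reductase that is a standard NRF2 readout (chr8:107388225-107403206), ran from 1.49 through 2.14 to 3.93 and from 2.03 through 3.88 to 4.47. The medians were well apart but vehicle library 1 was high, so that 6 of 13 treated libraries lay above every vehicle library (0.47 ± 0.10, adjusted p = 0.0269; deposited adjusted p = 0.157). Nqo1 lost its call without vehicle library 2, 3, 6 or 8 or treated library 2, 8 or 13 (0.0505 to 0.0620) and without treated libraries 1 and 2 together (0.0751). Aox1 and Nqo1 were the 2 of 12 carbonyl detoxification genes that rose (median 0.059), and Aox1 alone did without treated libraries 1 and 2.

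None of 13 genes of glutathione synthesis and thioredoxin and none of 6 NADPH-producing genes passed. Their medians were 0.085 and 0.039, the second at -3.07e-05 on the deposited scale, with 3 and 1 genes at an unadjusted p below 0.05. Gclc, the catalytic subunit of glutathione synthesis, ran from 15.2 through 16.7 to 17.1 with vehicle and from 15.7 through 18.2 to 18.8 with treatment (0.09 ± 0.03, adjusted p = 0.118). Although 10 of its 13 treated libraries lay above every vehicle library, the shift was small and did not pass. Its partner Gclm (0.09 ± 0.07, adjusted p = 0.683), thioredoxin reductase Txnrd1 (0.10, adjusted p = 0.229) and sulfiredoxin Srxn1 (0.02 ± 0.05, adjusted p = 0.879; deposited -0.02) did not pass either. No regulator passed: Nfe2l2, which encodes NRF2, had a fold of -0.08 ± 0.05 (adjusted p = 0.560), Keap1 one of -0.17 ± 0.14 (adjusted p = 0.663), and the median of the 14 regulators was -0.013. Of 20 other antioxidant enzymes 0 passed on the scaled values (median 0.0073; -0.034 deposited). Nucleoredoxin, Nxn, an oxidoreductase of the thioredoxin family, ran from 3.13 through 3.54 to 4.95 with vehicle and from 1.83 through 2.78 to 4.20 with treatment. Its deposited fold of -0.35 passed (adjusted p = 0.0254) and its scaled fold of -0.31 ± 0.07 did not (adjusted p = 0.0592), though it passed without treated libraries 1, 2 and 5 (-0.39, adjusted p = 0.00955). The deposited call was lost without vehicle library 3, 5, 6, 7 or 10 or treated library 3, 10 or 11 (0.0502 to 0.0708).

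Rida, which clears reactive imine intermediates of amino acid metabolism (chr15:34484021-34495255), was the only gene outside these groups whose treated and vehicle libraries did not overlap. It ran from 17.9 through 21.7 to 23.2 with vehicle and from 25.1 through 29.6 to 34.6 with treatment (0.48 ± 0.06, adjusted p = 0.000104; deposited 0.44, adjusted p = 0.0148). Wild type libraries held 17.3, 13.6, 16.1 and 21.9, all below every treated library. It was the only riser among 20 xenobiotic and aldehyde enzymes outside the NRF2 lists (median 0.0092; -0.033 deposited). Depp1, a FOXO-induced gene linked to autophagy (chr6:116650609-116652794), ran from 0.277 through 0.641 to 1.08 and from 0.959 through 2.27 to 3.61 (0.92 ± 0.14, adjusted p = 0.00103). With 11 of 13 treated libraries above every vehicle library it was the only one of 22 glucocorticoid or FOXO responsive genes to rise (median 0.0013; -0.037 deposited).

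**Figure D3:**
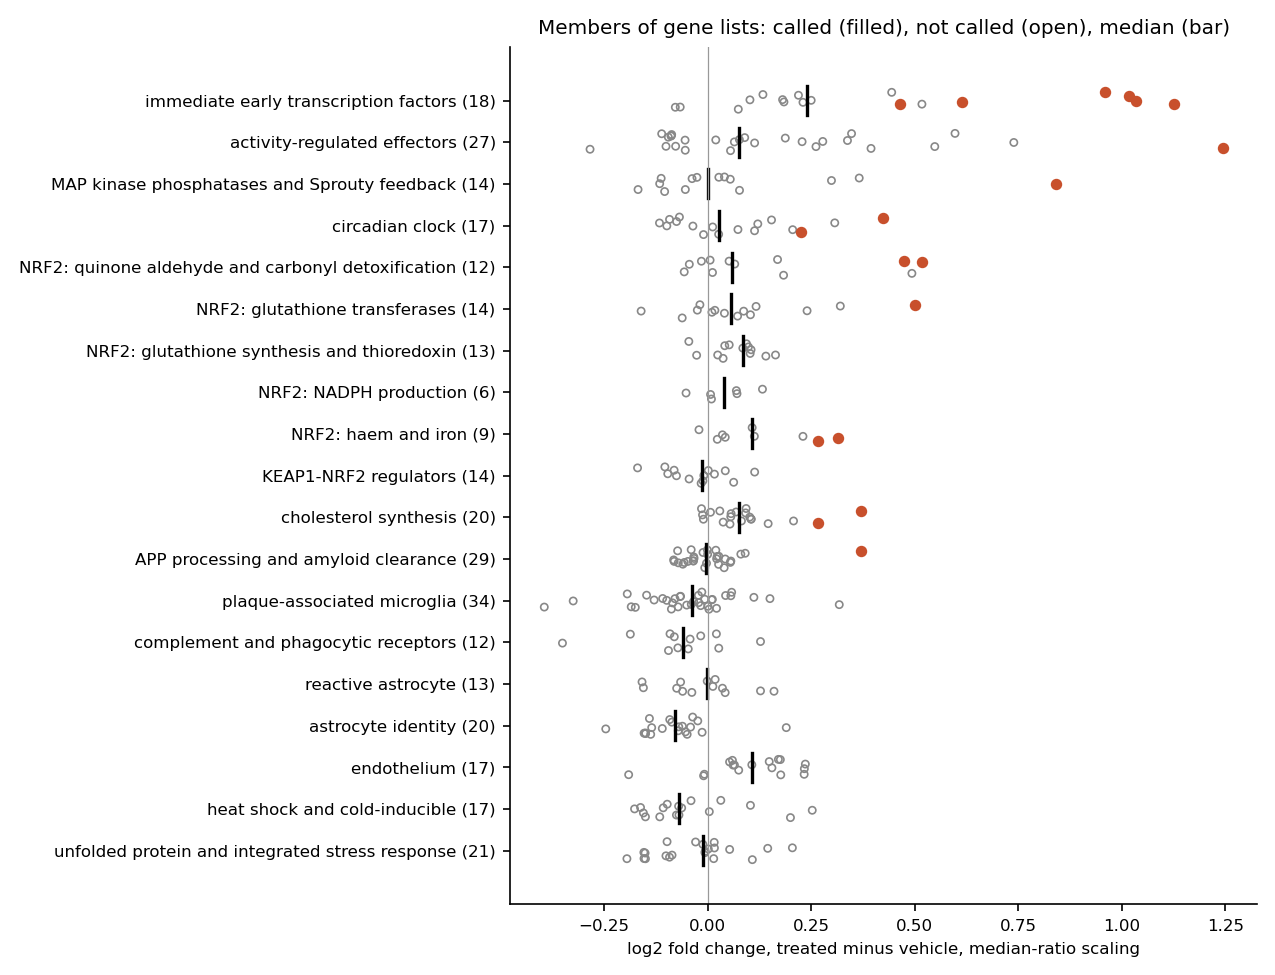
Fold changes (horizontal axis, log2 of scaled TPM + 1, treated minus vehicle) of the tested members of 19 gene lists (vertical axis); points are genes, filled where called, and bars mark list medians. Immediate early factors reach a median of 0.24, the NRF2 target groups between 0.039 and 0.11, and no microglial or astrocyte gene is called.

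Of 17 circadian clock genes 2 rose, Per1 and Nr1d1, against 41 of all 16776 genes. At an unadjusted p below 0.05, 6 of the 17 were higher and 3 lower, against 1097 and 997 of all genes. Folds were above 0 for 10 of the 17, against 8213 of 16776. Per1, a repressor of the circadian clock that is also induced by CREB (chr11:69095217-69109960), ran from 24.1 through 26.9 to 31.8 with vehicle and from 29.6 through 38.2 to 46.6 with treatment (0.42 ± 0.07, adjusted p = 0.00138; deposited adjusted p = 0.0652). Nr1d1, the haem-binding clock repressor REV-ERB alpha, had medians of 39.2 and 46.8 with largely overlapping ranges (0.22 ± 0.05, adjusted p = 0.0235). The circadian list of 17 had a median of 0.027 scaled and -0.016 deposited. Mvd, an enzyme of the mevalonate pathway, had medians of 6.61 and 8.73 (0.27 ± 0.06, adjusted p = 0.0235), in a list of 20 sterol genes with a median of 0.075. Nr1d1 and Mvd lost their calls without vehicle library 1 or 3 (adjusted p up to 0.0530) and without treated libraries 1 and 2 (0.0633 and 0.0715).

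Other genes that rose included Chrm4, the muscarinic M4 receptor, which ran from 16.3 through 20.6 to 24.0 with vehicle and from 21.8 through 25.7 to 28.5 with treatment (0.33 ± 0.05, adjusted p = 0.00368). The 4 wild type libraries for Chrm4 held 25.6 to 29.3. Arid3b, a DNA-binding protein, had medians of 2.91 and 3.95 (0.37, adjusted p = 0.0107), Tarbp2, a partner of Dicer, 2.72 and 3.87 (0.38, adjusted p = 0.0132), and the long noncoding RNA Lncpint 17.9 and 23.3 (0.38, adjusted p = 0.0235). The ceramidase Acer2 (0.45), the death receptor Tnfrsf25 (0.61), Ecm1 (0.28), Zfp948 (0.29), Baz2a (0.13), Vps37b (0.23) and Rbm12b1 (0.20) also rose, with adjusted p between 0.0107 and 0.0405. The falls were small. The proteasome subunit Psmd8 ran from 40.3 through 43.8 to 46.1 with vehicle and from 37.7 through 40.3 to 42.4 with treatment (-0.13 ± 0.02, adjusted p = 0.0107). Tspyl3 (-0.20), Fbrs (-0.18), Zmiz1 (-0.16) and Lcmt2 (-0.25) fell as well (adjusted p 0.0107 to 0.0259).

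Several of these calls changed when a library was left out. Tnfrsf25 lost its call without vehicle library 2 (adjusted p = 0.0510), Zmiz1 without vehicle library 8 (0.0507) and Lcmt2 without vehicle library 1, 3 or 8 (up to 0.0553). Baz2a lost it without any of 7 libraries, Vps37b of 13, Rbm12b1 of 16 and Acer2 of 15. Without treated libraries 1 and 2 these 7, Tarbp2, Ecm1 and Lncpint had adjusted p between 0.0534 and 0.106. In all, 25 of the 39 named genes that were called kept their call when each single library was left out. Arc, Junb, Depp1, Nr4a1, Rida, Fos, Aox1, Gstm1, Ftl1 and Chrm4 kept it under every other setting tried on the scaled values too.

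Glial and plaque-associated genes gave no calls. Among 34 plaque-associated microglia genes 0 passed (median -0.037), and 1 was higher and 2 lower at an unadjusted p below 0.05. Cst7, a cystatin of plaque microglia, ran from 8.68 through 15.2 to 18.6 with vehicle and from 4.52 through 14.6 to 21.0 with treatment, against 0 to 0.370 in wild type (-0.19 ± 0.18, adjusted p = 0.702). Trem2, the lipid receptor of these cells, had medians of 21.1 and 20.3 (-0.07 ± 0.11, adjusted p = 0.853), and Gfap, the intermediate filament of reactive astrocytes, 132 and 138 (-0.07 ± 0.11, adjusted p = 0.832). The ranges of both genes overlapped almost wholly. Without treated libraries 1 and 2, which held the lowest Cst7 and Gfap levels of their group, the folds were 0.0062, 0.028 and 0.056. The list medians were then 0.023 for plaque-associated microglia and 0.033 for 13 reactive astrocyte genes. Leaving out the lowest treated libraries had to raise the folds of Cst7 and Gfap, so nothing is read from their change of sign. Spp1, osteopontin (-0.39 ± 0.13, adjusted p = 0.155), and Cd14, the endotoxin co-receptor (-0.35 ± 0.10, adjusted p = 0.101), each had 5 of 13 treated libraries below every vehicle library and did not pass. Tyrobp was listed at 0 in most libraries of every group and gives no usable fold.

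Lists of complement and phagocytic receptors (12 genes, median -0.059), interferon response (10, -0.0062), antigen presentation (7, -0.091), NF-kB and cytokines (7, -0.0082) and metallothioneins (6, -0.0079) also held 0 called genes. Their range of adjusted p started at 0.101. The 29 genes of APP processing and amyloid clearance had a median of -0.0027. App itself, the knocked-in gene, ran from 416 through 429 to 453 scaled TPM with vehicle and from 408 through 435 to 476 with treatment (0.02 ± 0.02, adjusted p = 0.758; deposited -0.02). The beta-secretase Bace1 (-0.01 ± 0.03, adjusted p = 0.952) and the amyloid-degrading proteases Mme (-0.04 ± 0.08, adjusted p = 0.886) and Ide (-0.06 ± 0.04, adjusted p = 0.560) did not pass. The groups overlapped for each of these 4 genes.

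Markers of 13 cell types and regions were checked beside these results, and 0 of their tested genes were called. For scale, 8213 of all 16776 folds were positive. At an unadjusted p below 0.05, 1097 of all genes were higher and 997 lower. Summed microglia identity markers ran from 184 through 228 to 244 scaled TPM with vehicle and from 146 through 207 to 244 with treatment (18 genes, median fold -0.10, 1 positive). Astrocyte identity markers ran from 2164 through 2332 to 2577 and from 2081 through 2211 to 2313 (20 genes, median -0.079, 8 lower and 1 higher at an unadjusted p below 0.05). In bulk tissue fewer cells of a type and less RNA per cell cannot be told apart. Endothelial markers ran from 129 through 146 to 169 and from 140 through 151 to 176 (17 genes, median 0.11, 6 higher at an unadjusted p below 0.05), and without treated libraries 1 and 2 Cldn5, a tight junction gene, passed (0.30, adjusted p = 0.0164). Medians were -0.0097 for oligodendrocytes (16 genes), -0.047 for mural and meningeal cells (14) and 0.035 for blood (6; -0.010 deposited). Dissection can show in choroid plexus markers, which ran from 95.4 to 856 scaled TPM with vehicle and from 95.9 to 944 with treatment (12 genes, median -0.11). Region lists had medians of -0.0048 for striatum (10), -0.039 for hippocampus (8), -0.16 for thalamus and hypothalamus (11), -0.051 for cerebellum (7), -0.018 for cortical excitatory neurons (12) and -0.013 for interneurons (12). The part of these shifts in the called genes was not tested.

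The lists described next also held 0 called genes, with 1 exception. Heat shock and cold-inducible genes (17, median -0.070) had 6 lower and 1 higher at an unadjusted p below 0.05, with the chaperone Hsph1 at -0.18 ± 0.04 (adjusted p = 0.0727). Unfolded protein response genes (21, -0.011) included the endoplasmic reticulum chaperone Hsp90b1 at -0.15 ± 0.04 (adjusted p = 0.0592). Medians were 0.013 for lysosome and autophagy (25; -0.024 deposited), -0.028 for the proteasome (16), -0.046 for glutamate and GABA receptors (20), 0.0051 for the nuclear respiratory chain (24; -0.038 deposited), 0.10 for mitochondrially encoded genes (13) and -0.020 for ribosomal proteins (24). The exception was Rsrp1, an arginine and serine rich splicing-related gene (chr4:134923592-134927671) in the list of 25 SR factors and CLK kinases (median 0.045). It ran from 7.56 through 10.6 to 17.6 with vehicle and from 11.3 through 23.3 to 33.7 with treatment (0.89 ± 0.17, adjusted p = 0.0107). Its deposited call (adjusted p = 0.0254) was lost without any of 12 single libraries (vehicle 1, 2, 3, 9, 10 or 11, treated 3, 8, 9, 10, 11 or 12; 0.0502 to 0.0742). Without treated libraries 1 and 2 the scaled adjusted p of Rsrp1 was 0.0469, and without 1, 2 and 5 it was 0.0569.

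The table also lists single transcripts, which were compared in the same way. Gene and transcript rows together make up the fixed total, so these 64708 rows, with 8.55 to 11.5% of the TPM, are separate from the gene rows. Of 21076 transcript rows tested, 57 rose (0.27%) and 0 fell; at an unadjusted p below 0.05, 2097 (9.95%) were higher and 399 (1.89%) lower. Rows that GENCODE M21 types as retained introns, transcripts that keep an intron and are not translated, made up 53.0% of the rows tested and 41 of the 57 that rose (0.367% of 11175). Their median fold was 0.077 against 0.065 over all transcript rows, and 69.9% of them had a fold above 0 against 65.1% of all. Transcript rows were scaled with the size factors of the gene rows. As scaled TPM over the fixed total, all transcript rows summed to 9.08 to 10.1% with vehicle (median 9.77%) and 9.87 to 11.0% with treatment (median 10.1%).

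The transcripts below were chosen after their values were seen. Tyro3-207, of a receptor tyrosine kinase, ran from 2.76 through 3.72 to 4.42 scaled TPM with vehicle and from 4.87 through 5.68 to 6.60 with treatment. Its groups did not overlap (0.49), while the Tyro3 gene row had a fold of -0.006. Clk4-213, of a kinase that phosphorylates SR proteins, ran from 6.36 through 7.40 to 8.04 and from 8.46 through 9.22 to 10.2, also with no overlap (0.29), and the Clk4 gene row had a fold of 0.24 (adjusted p = 0.113). Ppp6r1-203, of a phosphatase 6 regulator, ran from 3.85 through 4.12 to 5.06 and from 5.03 through 6.03 to 6.77, with 12 of 13 treated libraries above every vehicle library (0.39). Calr-203, of the chaperone calreticulin, rose by 0.71 beside a gene row at -0.19, and Srebf2-207, of the master regulator of sterol genes, by 0.42 beside a gene row at -0.012. Over the 41 retained intron rows, which come from 40 genes, the median fold was 0.43 (0.20 to 1.55). The gene rows of the same genes had a median of -0.012 (-0.36 to 0.24) and 0 of them were called.

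**Figure D4:**
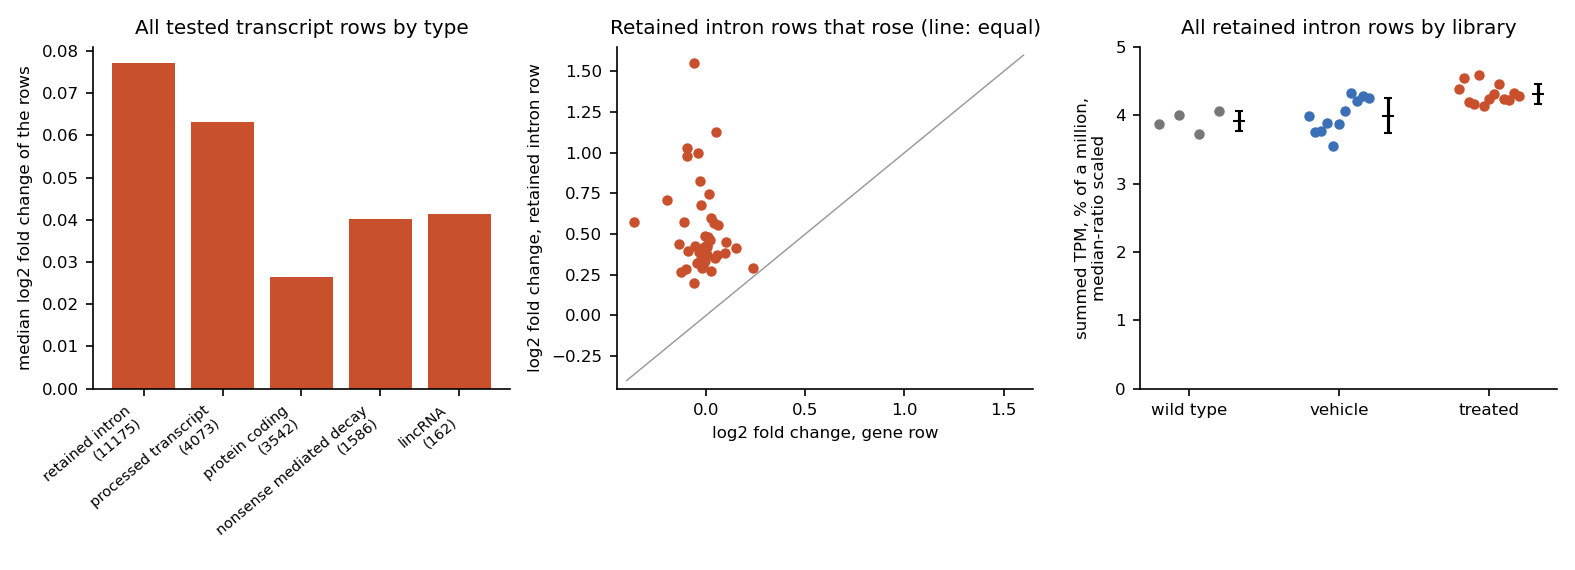
Left, median fold (log2 of scaled TPM + 1, treated minus vehicle) of tested transcript rows by type; middle, fold of each retained intron row that rose against the fold of its gene row; right, summed retained intron rows as scaled TPM in percent of the fixed total, in each library, with mean ± SD beside each group. The gene rows in the middle panel lie between -0.36 and 0.24, and treated libraries on the right lie between 4.14 and 4.59.

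As scaled TPM over the fixed total of a library, retained intron rows summed to 3.56 to 4.33% in vehicle libraries (median 3.99%), 4.14 to 4.59% in treated libraries (median 4.28%) and 3.73 to 4.06% in wild type. The groups overlapped broadly, with 4 of 11 vehicle libraries inside the treated range and 8 of 13 treated libraries below the highest vehicle library. In numbers 1 to 5 the share was 3.79 ± 0.16% (SD, n = 5) with vehicle and 4.38 ± 0.20% (n = 5) with treatment, with no overlap. In numbers 6 and above it was 4.17 ± 0.17% (n = 6) and 4.28 ± 0.092% (n = 8), a difference of 0.11 percentage points against 0.58 in the lower numbers, and 2 of 8 treated libraries lay above every vehicle library. Whether the ranges differ was not tested. Of the abundant nuclear noncoding RNAs 0 of 11 passed, with folds above 0 for each (median 0.13) and Neat1, the scaffold of paraspeckles, at medians of 21.5 and 31.0 (0.50 ± 0.12, adjusted p = 0.0567). Their part in the transcript result was not tested. With the deposited TPM limma called 0 transcript rows, and 1673 had an unadjusted p below 0.05. Without treated libraries 1 and 2, 35 rose and 2 fell, 32 of them among the 57. Leaving out treated library 5 as well gave 7 that rose and 0 that fell, 4 of them among the 57.

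Levels in wild type libraries are set beside both AppNLGF groups. These values share the vehicle or treated libraries with the comparison above and are given as description. Vehicle minus wild type folds were -1.21 for Arc, -1.30 for Nr4a1, -1.31 for Junb and -1.68 for Fos, and treated minus wild type folds were 0.04, -0.27, -0.30 and -0.55. For Gstm1, Ftl1, Rida, Aox1 and Depp1 the treated minus wild type folds were 0.56, 0.38, 0.77, 0.79 and 1.16. Of the 41 genes that rose, 30 had a vehicle mean below that of wild type. Against wild type, 10 of the 41 were called in vehicle libraries (Arc, Nr4a1, Junb, Per1, Fos, Chrm4, Ier2, Dusp1, Egr2 and Nr1d1). In treated libraries 8 were, Gstm1, Rida, Ftl1, Depp1, Aox1, Slc40a1 and the predicted genes Gm38394 and Gm43540. No share over all genes stands beside these counts. The 41 genes were picked for levels above these same vehicle libraries, which favours low vehicle means. All 4 wild type libraries had Xist at most 10 TPM, against 6 of 11 vehicle and 6 of 13 treated libraries. Genotype and Xist state are therefore not separated in these folds.

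The labels name no batch, but libraries numbered 1 to 5 differed from those numbered 6 and above. ENSMUSG00000118866 held 36.3 ± 1.29% (SD, n = 5) and 30.5 ± 1.66% (n = 6) of the TPM in vehicle libraries of the 2 number ranges, and 37.5 ± 3.24% (n = 5) and 30.8 ± 3.02% (n = 8) in treated ones. The treated minus vehicle difference was therefore recomputed for 15 called genes within each range and within libraries with Xist above and at most 10 TPM. These genes were called on the same libraries, so their direction within a part of them is no independent evidence, and the values are a description with no test. For Arc the differences were 1.39 in numbers 1 to 5, 1.13 in 6 and above, 0.97 with Xist above 10 TPM and 1.51 with Xist at most 10 TPM. For Gstm1 they were 0.41, 0.56, 0.43 and 0.57, and for Nqo1 0.33, 0.58, 0.46 and 0.49. For Dusp1 they were 0.74, 0.93, 0.50 and 1.22, and for Rsrp1 1.02, 0.80, 0.45 and 1.30, both lowest with Xist above 10 TPM.

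The effect of CDDO-2P-Im was then set against its effect in APP/TAU mice, in a joint fit of both tables; folds were formed only within a table. Of 16418 genes tested in both, the effects differed for 12 (0.0731%), 8 higher in AppNLGF (0.0487%) and 4 lower (0.0244%). With the deposited TPM, on which the median difference of all genes was 0.15 instead of -0.0069, 21 were higher and 1 lower. The count of 12 became 4, 6 or 6 without APP/TAU vehicle library 2, 1 or 4, 6 without treated library 2 or 5, and 22 and 31 without vehicle library 3 and 5. Arc in APP/TAU libraries held 71.8, 78.2, 84.4, 61.2 and 63.3 scaled TPM with vehicle and 50.3, 44.0, 59.5, 50.3 and 54.9 with CDDO-2P-Im. All 5 treated libraries lay below the 5 vehicle libraries there, the opposite order to AppNLGF, though the fold of -0.46 ± 0.21 did not pass (adjusted p = 0.524). The effects differed by 1.70 ± 0.25 (adjusted p = 0.000874). Nr4a1 held 50.4, 53.6, 52.6, 44.4 and 46.1 with vehicle and 38.8, 27.9, 41.1, 36.5 and 44.6 with CDDO-2P-Im, and its effects differed by 1.43 ± 0.22 (adjusted p = 0.000993). Junb differed by 1.29 ± 0.23 (adjusted p = 0.00845). For these 3 genes the difference passed without each APP/TAU library and under every other setting tried for it.

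Per1 (0.75 ± 0.14, adjusted p = 0.0118), Egr2 (1.47 ± 0.29, adjusted p = 0.0272) and Fos (1.35 ± 0.29, adjusted p = 0.0498) also differed. The difference was lost for Per1 without APP/TAU vehicle library 2 or treated library 2 (adjusted p 0.0589 to 0.0629). It was lost for Egr2 without vehicle library 1, 2 or 4 or treated library 2 (0.0503 to 0.0867), and for Fos without any of 8 of the 10 APP/TAU libraries, all but vehicle 5 and treated 3 (0.0596 to 0.128). The effect was lower in AppNLGF for the ribosomal protein genes Rpl34 (difference -0.37) and Rpl26 (-0.32) and the histone genes Hist1h3e (-0.65) and Hist1h4f (-0.77, chosen after its value was seen). In AppNLGF these 4 had folds of -0.11, -0.069, -0.090 and -0.17, and in APP/TAU 0.26, 0.25, 0.56 and 0.61. All have near-identical copies, so their levels are uncertain. With the deposited TPM the difference was -0.19 for Rpl34 (adjusted p = 0.416) and -0.14 for Rpl26 (adjusted p = 0.481), so that neither passed. Rpl34 also lost its call without APP/TAU vehicle library 2 (0.0570), Rpl26 without vehicle library 1, 2 or 4 or treated library 3 or 5 (0.0603 to 0.134). Hist1h3e kept its call only without vehicle library 3 or 5 or treated library 4, and Hist1h4f only without vehicle library 3 or 5.

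The NRF2 targets Gstm1, Ftl1, Aox1 and Nqo1, and Rida, which is outside the NRF2 lists, had positive folds in both models. In APP/TAU the limma adjusted p was 0.000173 for Gstm1, 9.44e-06 for Ftl1, 0.0455 for Aox1 and 0.0455 for Nqo1. Rida did not pass there (0.31 ± 0.10, adjusted p = 0.314). Gstm1 in APP/TAU libraries held 127, 120, 124, 120 and 126 scaled TPM with vehicle and 182, 206, 176, 194 and 210 with CDDO-2P-Im, with no overlap. Its fold there was 0.64 ± 0.09 against 0.50 ± 0.06 in AppNLGF, a difference of -0.14 with a 95% interval from -0.36 to 0.077. The difference was -0.15 for Ftl1 (-0.27 to -0.026; adjusted p = 0.320), -0.11 for Aox1 (-0.42 to 0.20), -0.21 for Nqo1 (-0.55 to 0.13) and 0.17 for Rida (-0.067 to 0.41). With the deposited TPM the differences of Gstm1, Ftl1 and Aox1 were above 0. The intervals cover sizes as large as the folds of Ftl1, so the comparison does not show equal effects. Depp1 (1.06, adjusted p = 0.118), Rsrp1 (1.14, adjusted p = 0.118) and Dusp1 (1.08, adjusted p = 0.0867) missed the threshold; Depp1 passed without APP/TAU treated library 3 (0.0485) and Rsrp1 with the deposited TPM (0.0391). Model, age, length of treatment and cohort differ together between the 2 experiments and cannot be told apart.

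**Figure D5:**
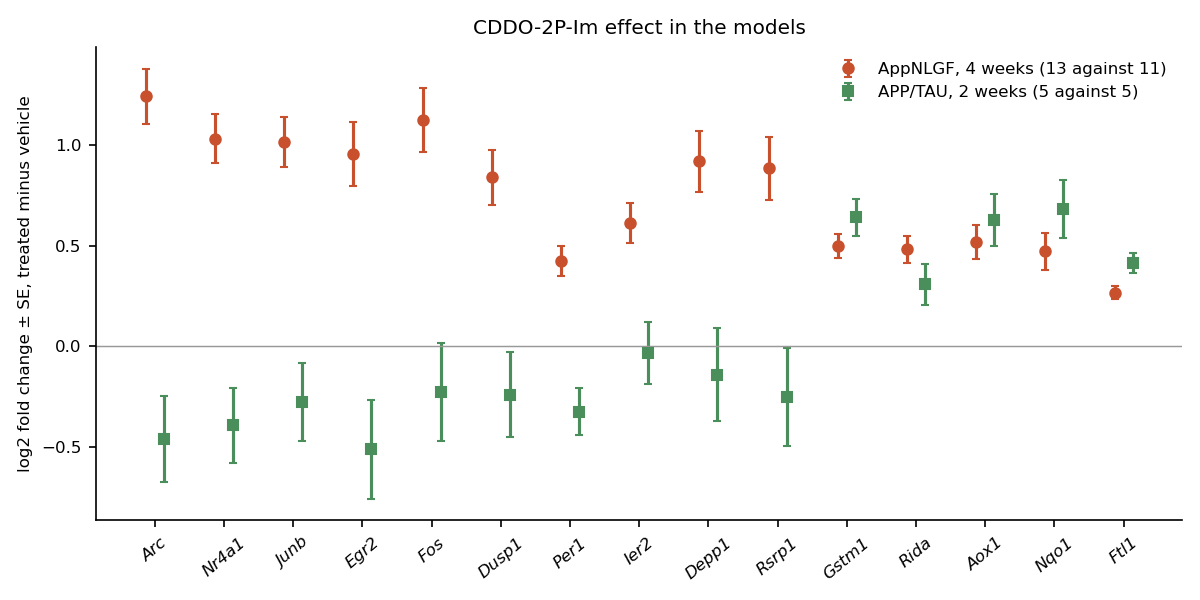
Fold change (vertical axis, log2 of scaled TPM + 1, treated minus vehicle; points ± SE) of 15 genes (horizontal axis) in AppNLGF mice (13 against 11 libraries, 4 weeks) and APP/TAU mice (5 against 5 libraries, 2 weeks). Arc, Nr4a1 and Junb lie above 1 in AppNLGF and below 0 in APP/TAU, while Gstm1 (0.50 and 0.64) lies on the same side in both.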

How the data were processed

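Total RNA of mouse brain was extracted with Sepasol, and libraries were made on an MGISP-960 with the strand-keeping MGIEasy RNA Directional kit, per the labels' protocols. Abundance was estimated with Salmon on GRCm38 (mm10), per the submitters' processing notes; not given in the sources used here are its version, the annotation release and the use of strand. The deposited values are the authors' TPM, without read counts, so depth is unknown. Groups were taken from the titles.

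From these values, gene rows whose TPM averaged 1 or more over 28 libraries (16776 of 55804; 51327 have a symbol) were analysed as log2(TPM + 1), as deposited and after division by a median-ratio size factor. limma 3.58.1 in R 4.3.3 fitted a mean per group over the 3 groups of the table with a variance trend, two-sided and Benjamini-Hochberg adjusted. Transcript rows (60187 of 64708 named in GENCODE M21, which gave all positions) and the difference between models (6 group means) were fitted the same way. The fits were tested on simulated data. Values by library were summarised with pandas 2.3.3 and numpy 2.4.6, and tables were read with data.table (1.17.8).

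The members, the 45 gene lists (776 genes, 689 tested) and the promoter motifs were chosen with earlier results of these data known. Named genes were those called with deposited TPM, up to 40 with an official symbol called after scaling, from each list up to 4 members by smallest p, and a preset group of NRF2, amyloid, glial and immediate early genes; between models, the 10 called genes with the smallest p and those called in AppNLGF. The alternatives were other scalings, pseudocounts, expression minimums, fits, library weights, terms for replicate number or Xist, a replicate block, and leaving out libraries. Some genes are not reported here.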

Additional observations from a re-analysis of the deposited data

Results flagged for a closer look

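The effect of CDDO-2P-Im differed between AppNLGF and APP/TAU mice, by a test of the difference itself (limma, adjusted p below 0.05), for 12 genes. The difference, AppNLGF minus APP/TAU, was 1.70 for Arc, 1.43 for Nr4a1, 1.29 for Junb, 1.47 for Egr2, 1.35 for Fos, 0.75 for Per1, and 0.70 and 0.24 for the predicted genes Gm9754 and Gm38394. It was -0.37 for Rpl34, -0.32 for Rpl26, -0.65 for Hist1h3e and -0.77 for Hist1h4f. Gm9754 lost its call without APP/TAU treated library 5 (adjusted p = 0.0518), and Gm38394 without vehicle library 1, 2 or 4 or treated library 2 or 5 (0.0681 to 0.106).

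A single library was flagged as apart from the others of its group, by Dixon's criterion, in 7 of 123 groups tested (75 of 5 and 48 of 4). Chance alone gives about 1 in 20, so the count is near that of chance. The scaled TPM concerned were 83.0 for Hist1h4f in APP/TAU treated library 5, 31.1 for Fos in wild type library 1 of the APP/TAU cohort, 22.5 for Rida in APP/TAU vehicle library 3, 15.7 for Chrm4 in wild type library 1 of the APP/TAU cohort and 44.8 for Egr1 in APP/TAU treated library 2. In the wild type libraries of the AppNLGF cohort they were 2.61 for Tnfrsf25 and 5.64 for the predicted gene Gm21781, the highest of each.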

How the results depend on the processing

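The count of genes called with the deposited TPM was 9. It became 48 with median-ratio scaling, 46 with quantile normalization, 18 with library weights, 22 with a term for replicate numbers 1 to 5 and 14 with a term for Xist above 10 TPM, 17 without treated libraries 1, 2 and 5 (chosen after seeing the data), and ran from 5 to 15 without each library in turn. After median-ratio scaling it was 48, and became 31 with a minimum mean TPM of 5, 75 with the term for replicate numbers, 88 with the term for Xist and 29 without treated libraries 1 and 2 together, with a range of 34 to 89 without each library. The 12 genes whose effect differed between models became 22 with the deposited TPM and ran from 4 to 31 without each APP/TAU library. The 57 transcript rows became 0 with the deposited TPM and 37 without treated libraries 1 and 2, and 7 without 1, 2 and 5.

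With a replicate block the counts were 4 for deposited TPM, 18 after scaling, 4 for the difference between models and 0 for transcript rows, where 2410 had an unadjusted p below 0.05. Deviations of same-numbered treated and vehicle libraries were weakly correlated (r -0.024 to 0.12, over 0.1 for 3 of 11 numbers), and 2 of 11 treated libraries correlated best with their own number. Treated libraries 1, 2 and 5 correlated best with vehicle libraries 2, 5 and 3, and treated 8, 9 and 11 with vehicle 7, 8 and 9. Treated 4, 6 and 7 did so with vehicle 11, 5 and 5, of the other number range. Equal numbers alone cannot show what libraries of a number range share, which was not tested.

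Among genes that did not pass, Bace1 changed sign without vehicle library 4 (0.00067) or 8 (0.0019) or treated library 9 (0.0029), Hmox1 without treated library 4 (-0.012; up to 0.064 without other libraries) and Tyrobp without treated library 6 (-0.0056; up to 0.65). Without treated libraries 1 and 2, Cst7 (0.0062), Trem2 (0.028) and Gfap (0.056) did too, as did Trem2 (0.0048) and Gfap (0.039) without 1, 2 and 5. For Cst7 and Gfap a rise had to follow, since libraries 1 and 2 held their lowest treated levels. The difference between models turned positive with the deposited TPM for Gstm1 (0.037), Ftl1 (0.033) and Aox1 (0.015). The cause of the other changes of sign was not tested. Fixed totals let an abundant RNA move all other TPM, and without depth the error of low genes such as Depp1, Aox1 and Nqo1 cannot be separated from counting noise.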
